A study of Mus musculus with 21 samples.

Results

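The 7 major urinary protein genes Mup3, Mup7, Mup11, Mup16, Mup17, Mup20 and Mup21 were followed in liver RNA sequencing counts of 21 liver samples from wild-type mice. They were chosen by symbol because earlier values from these livers showed large differences between the diets, so that their differences between groups are given as descriptions, without p-values. They are 7 of the 22 Mup genes, and of the 49 rows with a Mup symbol once 27 pseudogenes are included, in a table of 52636 gene IDs. All 7 passed the filter on low counts. The first group holds 8 livers after 8 weeks of CDA-HFD, a high-fat diet with defined amino acids and no choline that produces steatohepatitis with fibrosis in mice. The second holds 8 livers after 16 weeks of CDA-HFD, and the third holds 5 livers of mice on normal chow. These chow mice had been on chow for 8 weeks, although their labels read week 0. Whether their age matches that of the 8-week CDA-HFD livers is not certain. There is no chow group at 16 weeks, and age and diet duration cannot be told apart for the 16-week livers. No transgene, deletion or drug is named for any group, and the labels give no sex or batch.

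Major urinary proteins are small lipocalins, barrel-shaped proteins that bind volatile molecules. Hepatocytes make and secrete them, the kidney passes them into urine, and there they carry and slowly release scents used in communication between mice. In mouse liver the genes are expressed more in males, where pulses of growth hormone act through the growth hormone receptor, the kinase JAK2 and the factor STAT5b, and the factor Zhx2 promotes their expression. The genes lie in a cluster of recent copies, with a core of near-identical genes and a few older, more divergent ones at its edge. Mup20 encodes darcin, a protein pheromone of male urine.

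All 7 genes lie on the minus strand of chromosome 4 in GRCm38 and are annotated as protein-coding. From proximal to distal they are Mup7 (ENSMUSG00000073842, 60066469 to 60070475), Mup11 (ENSMUSG00000073834, 60658466 to 60662411), Mup16 (ENSMUSG00000078675, 61515592 to 61519531), Mup17 (ENSMUSG00000096688, 61591929 to 61595871), Mup20 (ENSMUSG00000078672, 62050234 to 62054158), Mup3 (ENSMUSG00000066154, 62083476 to 62087342) and Mup21 (ENSMUSG00000066153, 62147932 to 62150863). The coding sequences are 540 to 552 bases long, and pairs of the 7 genes are identical at 82.1% to 98.9% of aligned positions. Mup7, Mup11, Mup16 and Mup17 form the core, at 98.3% to 98.9% identity with each other. Mup20 is at 90.1% to 91.3% identity with those 4 genes. Mup3 and Mup21 are at 94.7% identity with each other, and Mup3 is at 82.1% to 83.3% with the 4 core genes. The stretch of 90 coding bases below shows this split, since how far counts can be assigned to each gene depends on it. It is taken from the annotated coding sequences (GENCODE M21, GRCm38), runs 5′ to 3′ along the transcript, and has capitals where a base is unlike Mup17 at the aligned position. The bases shown are coding bases 113 to 202 of Mup3, 101 to 190 of Mup7, Mup16 and Mup17, and 104 to 193 of Mup11, Mup20 and Mup21.
Mup3: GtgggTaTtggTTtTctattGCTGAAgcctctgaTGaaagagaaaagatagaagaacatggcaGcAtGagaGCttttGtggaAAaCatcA
Mup21: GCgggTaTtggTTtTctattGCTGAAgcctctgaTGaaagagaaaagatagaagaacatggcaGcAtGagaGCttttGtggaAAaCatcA
Mup20: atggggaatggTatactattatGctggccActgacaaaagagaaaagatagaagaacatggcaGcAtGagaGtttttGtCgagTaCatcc
Mup17: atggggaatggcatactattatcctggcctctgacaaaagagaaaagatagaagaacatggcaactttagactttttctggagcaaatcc
Mup11: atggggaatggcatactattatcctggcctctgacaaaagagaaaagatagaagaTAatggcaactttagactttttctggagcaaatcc
Mup7: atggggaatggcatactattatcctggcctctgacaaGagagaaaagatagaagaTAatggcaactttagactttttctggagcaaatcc
Mup16: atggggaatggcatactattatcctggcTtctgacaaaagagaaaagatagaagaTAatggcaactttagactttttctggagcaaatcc
In this stretch 31 of the 90 positions vary among the 7 genes. Mup11 differs from Mup17 at 2 bases, Mup7 and Mup16 at 3 bases each, Mup20 at 11, Mup3 at 24 and Mup21 at 25.

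A read from the core genes can therefore match several of them. Windows were taken from the annotated transcript chosen for each gene. Of its 100-base windows, 97.1% in Mup3 and 95.5% in Mup21 occurred in no other gene, against 61.2% in Mup20, 40.6% in Mup17, 19.9% in Mup16, 16.5% in Mup11 and 12.9% in Mup7. With 50-base windows the shares were 84.4% in Mup3, 80.7% in Mup21, 49.5% in Mup20, 21.9% in Mup17 and 3.6% in Mup7. Counts of Mup3 and Mup21 are thus the least open of the 7 to shared reads. Those of Mup7, Mup11, Mup16 and, in part, Mup17 and Mup20 are uncertain for each gene alone. Neither the read length nor the handling of reads with several matches is stated in the labels or the processing notes. The sum over the 7 genes is given beside them. It held 97.9% to 99.4% of all counts with a Mup symbol in the 8-week CDA-HFD libraries, 98.2% to 99.5% in the 16-week libraries and 97.0% to 99.0% in the chow libraries.

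**Figure D1:**
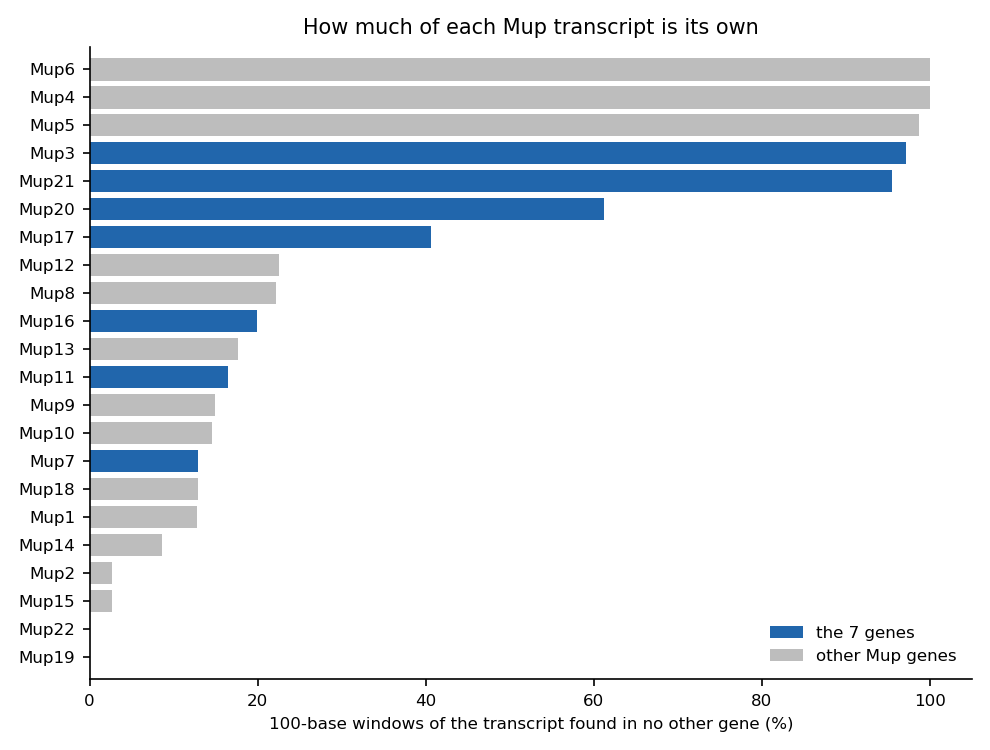
Share of the 100-base windows of the transcript chosen for each Mup gene that occur in no other gene (horizontal axis, %), for the 7 genes described here (blue) and the 15 other Mup genes (grey). At this window length Mup3 at 97.1% and Mup21 at 95.5% are close to fully distinguishable, whereas Mup7 at 12.9% is not.

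Promoter sequences from RefSeq (GRCm38.p6) were matched for 5 of the 7 genes. Mup16 and Mup20 had no entry. The letters TATATAA, searched on both strands in the 250 bases before the RefSeq start, occurred in 3 of these 5 promoters (60.0%), in 11 of 14 Mup promoters (78.6%) and in 998 of 32851 promoters of all genes (3.04%). TATATAA was the only motif searched. The 30 bases before the RefSeq start are shown for these 3 genes because the divergent pair Mup3 and Mup21 and the core gene Mup17 keep the same letters around it. Each lies on the minus strand and reads 5′ to 3′, with the motif in capitals, at chr4:62087318-62087347 for Mup3, chr4:62150842-62150871 for Mup21 and chr4:61595833-61595862 for Mup17.
Mup3: gtccactgaaaccagagagTATATAAggac
Mup21: aaagcccactgaaaccagagagTATATAAg
Mup17: gagagTATATAAggacaagcaaaggggctg
The first base of the motif stands 11 bases before the RefSeq start in Mup3, 8 bases before it in Mup21 and 25 bases before it in Mup17. The GENCODE genes given above start further upstream, so that the same base lies 14 bases inside the GENCODE gene in all 3, and the RefSeq start 25, 22 and 39 bases inside it in that order. A match describes letters in this window and not a bound site.

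Total counts per library were 29037525 to 45868842 at 8 weeks of CDA-HFD, 35254088 to 48901145 at 16 weeks and 33522456 to 42586342 on chow. Levels are given as CPM, counts scaled to a common library size after adjustment with TMM (trimmed mean of M-values), a method that evens out differences in library make-up. Liver identity was clear in every library. The summed level of 14 genes for proteins that hepatocytes secrete, albumin among them, was 134900 to 544400 CPM at 8 weeks, 105200 to 144800 CPM at 16 weeks and 165300 to 198100 CPM on chow. Transcripts of squamous epithelium (10 keratin and related genes) summed to 2.57 to 1757 CPM at 8 weeks and 6.45 to 252.2 CPM at 16 weeks, against at most 0.660 CPM on chow, where 5 of the 10 genes had no count in any library. Skeletal muscle transcripts (8 genes) summed to 0.855 to 3078 CPM at 8 weeks and 5.81 to 379 CPM at 16 weeks, against 0.724 to 353.8 CPM on chow. Exocrine pancreas transcripts (9 genes) summed to 16.8 to 9101 CPM at 8 weeks and 11.8 to 16.6 CPM at 16 weeks, against 16.9 to 31.5 CPM on chow. Fat tissue transcripts (5 genes) summed to 0.279 to 417 CPM at 8 weeks and 0.775 to 33.5 CPM at 16 weeks, against 1.51 to 32.5 CPM on chow. Salivary and lacrimal gland markers (6 genes), from glands that also express Mup genes in mice, never exceeded 0.743 CPM. Replicate 3 of the 8-week group stood apart. It held the highest squamous and muscle sums, its scaling factor was 0.496 where the others lay between 0.81 and 1.30, and its hepatocyte sum was 544400 CPM where the other 8-week libraries reached at most 258600 CPM. Values that move most with it are also given without it, and 8-week means include it unless stated. The share of counts from mitochondrial genes was 0.249% in that library and 2.22% to 3.18% in the other 8-week libraries, and 2.37% to 3.15% at 16 weeks, against 4.23% to 5.34% on chow, and its part in the Mup levels was not tested. In bulk liver, fewer hepatocytes and less Mup RNA per hepatocyte cannot be told apart.

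Together the 7 genes took up a large share of the chow liver transcriptome and a smaller one on CDA-HFD. They accounted for 0.196% to 0.599% of all counts at 8 weeks of CDA-HFD and 0.0554% to 0.265% at 16 weeks, against 0.732% to 1.76% on chow. The summed level was 4118 ± 3482 CPM at 8 weeks (SD, n = 8) and 1363 ± 706 CPM at 16 weeks (SD, n = 8), against 16710 ± 4778 CPM on chow (SD, n = 5). At 8 weeks the sum ran from a lowest 1845 CPM through a median of 2472 CPM to a highest 12100 CPM, which was replicate 3. At 16 weeks it ran from 441.6 CPM through a median of 1384 CPM to 2282 CPM. The chow livers held 9029, 15230, 20380, 20330 and 18590 CPM. Apart from replicate 3, every 8-week liver was below every chow liver, and every 16-week liver was below every chow liver. The exception depends on the scaling. With total counts replicate 3 had 5994 CPM, against at least 7326 CPM on chow, and relative to the 14 hepatocyte genes it had 3748 CPM, against at least 7686 CPM on chow. Without replicate 3 the 8-week mean was 2979 ± 1422 CPM (SD, n = 7). The sum was lower by a factor of 4.06 at 8 weeks (log2 difference -2.02 ± 0.46, SE) and by a factor of 12.3 at 16 weeks (-3.62 ± 0.47). Without replicate 3 the 8-week value was -2.50 ± 0.39. Relative to the hepatocyte genes, the log2 differences of the sum were -2.57 ± 0.33 at 8 weeks and -3.13 ± 0.34 at 16 weeks. Summed over all rows with a Mup symbol, the log2 differences were -2.04 ± 0.46 and -3.64 ± 0.47.

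**Figure D2:**
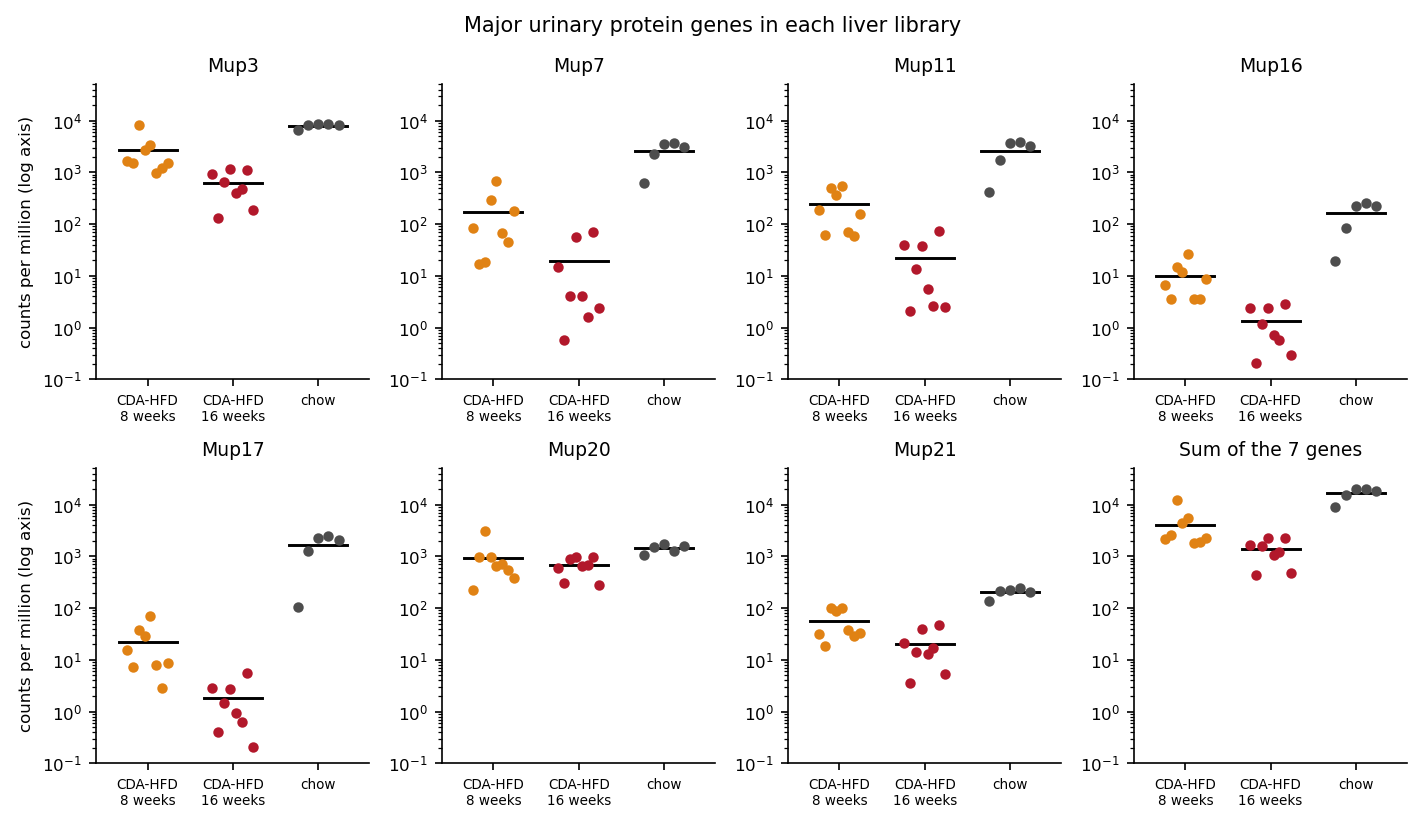
Level of each of the 7 genes and of their sum in every library (vertical log axis, CPM), for 8 livers at 8 weeks of CDA-HFD (orange), 8 at 16 weeks (red) and 5 on chow (grey), with the mean of each group as a line. Points are spread sideways in replicate order. Mup17 spans the widest range, with means of 22.4 CPM at 8 weeks, 1.86 CPM at 16 weeks and 1655 CPM on chow, and Mup20 the narrowest, with 938.1 CPM at 8 weeks, 667.5 CPM at 16 weeks and 1435 CPM on chow.

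Mup17, the most distinguishable of the core genes, differed most. Its level at 8 weeks of CDA-HFD ran from 2.90 CPM through a median of 12.04 CPM to 71.0 CPM, and at 16 weeks from 0.209 CPM through 1.21 CPM to 5.63 CPM. The chow livers held 103.6, 1263, 2305, 2488 and 2115 CPM. No CDA-HFD liver reached the lowest chow liver at either time. The mean was 22.4 ± 23.0 CPM at 8 weeks and 1.86 ± 1.83 CPM at 16 weeks, against 1655 ± 986 CPM on chow. The log2 difference from chow was -6.21 ± 0.86 (SE), a 74.1-fold lower level, at 8 weeks. It was -9.79 ± 0.99, an 887-fold lower level, at 16 weeks. Among all 17104 genes tested, the lowest log2 difference at 16 weeks was that of Mup17.

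The other core genes followed the same order of groups. Mup7 ran from 16.7 CPM through a median of 77.2 CPM to 684.2 CPM at 8 weeks and from 0.578 CPM through 4.11 CPM to 71.0 CPM at 16 weeks, against 620.1, 2247, 3536, 3663 and 3094 CPM on chow. Its log2 difference from chow was -3.92 ± 1.03 (15.2-fold lower) at 8 weeks, or -4.71 without replicate 5, and -7.09 ± 1.17 (137-fold lower) at 16 weeks, or -7.79 without replicate 7. Mup11 ran from 59.8 CPM through 169.7 CPM to 552.9 CPM at 8 weeks and from 2.10 CPM through 9.65 CPM to 72.0 CPM at 16 weeks, against 410.1, 1754, 3664, 3935 and 3239 CPM on chow. Only replicates 3 and 5 of the 8-week group, at 497.1 and 552.9 CPM, exceeded the lowest chow liver for Mup11, and only replicate 5 did so for Mup7 and Mup16. The log2 difference of Mup11 was -3.42 ± 0.82 (10.7-fold lower) at 8 weeks and -6.89 ± 0.94 (119-fold lower) at 16 weeks. Mup16 was the least abundant of the 7 per exon length in every group. It ran from 3.54 CPM through 7.53 CPM to 27.0 CPM at 8 weeks. At 16 weeks it ran from 0.210 CPM through 0.942 CPM to 2.92 CPM, against 19.4, 85.2, 228.7, 253.6 and 222.6 CPM on chow. Its log2 difference was -4.03 ± 0.66 (16.3-fold lower) at 8 weeks and -6.92 ± 0.74 (121-fold lower) at 16 weeks.

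The divergent genes Mup3 and Mup21, whose counts are the least open of the 7 to shared reads, were lower by smaller factors. Mup3, the most abundant of the 7 per exon length on chow, ran from 952.4 CPM through a median of 1604 CPM to 8394 CPM at 8 weeks and from 132.6 CPM through 563.4 CPM to 1140 CPM at 16 weeks, against 6660, 8144, 8657, 8505 and 8147 CPM on chow. The highest 8-week value was replicate 3, inside the chow range with TMM, and the next was 3419 CPM. With total counts replicate 3 had 4160 CPM of Mup3, and relative to the hepatocyte genes 2601 CPM. The log2 difference from chow was -1.58 ± 0.50 (2.998-fold lower) at 8 weeks, or -2.12 without replicate 3, and -3.67 ± 0.52 (12.7-fold lower) at 16 weeks. Mup21 ran from 18.5 CPM through 35.6 CPM to 102.1 CPM at 8 weeks and from 3.50 CPM through 15.5 CPM to 47.9 CPM at 16 weeks, against 137.5, 214.8, 227.3, 241 and 207.6 CPM on chow. The groups did not overlap at either time. Its log2 difference was -1.90 ± 0.50 (3.73-fold lower) at 8 weeks and -3.35 ± 0.52 (10.2-fold lower) at 16 weeks.

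Mup20, the darcin gene, kept the most of its chow level. It ran from 224.8 CPM through a median of 675.4 CPM to 3031 CPM at 8 weeks and from 275.3 CPM through 666.9 CPM to 966.5 CPM at 16 weeks, against 1078, 1521, 1759, 1248 and 1568 CPM on chow. The 16-week livers all lay below the lowest chow liver, and of the 8-week livers only replicate 3 lay above it. The mean was 938.1 ± 885 CPM at 8 weeks and 667.5 ± 274 CPM at 16 weeks, against 1435 ± 271 CPM on chow. The log2 difference was -0.61 ± 0.45 at 8 weeks (1.53-fold lower), or -1.18 without replicate 3, and -1.10 ± 0.44 at 16 weeks (2.15-fold lower).

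The groups did not overlap for 2 of 7 genes (Mup17 and Mup21) at 8 weeks, where 14.8% of all genes were lower without overlap, and for 7 of 7 at 16 weeks, where 23.3% were. Nothing is read from these counts, since the same contrasts chose the genes. The median log2 difference of the 7 genes was -3.42 at 8 weeks and -6.89 at 16 weeks, beside 0.16 and 0.03 over all genes tested. Both comparisons share the chow livers. Replicates 4 and 5 of the 8-week group held the highest pancreas sums, at 9101 and 428 CPM. Replicates 3, 4 and 5 also held the highest 7-gene sums of the 8-week group, at 12100, 4450 and 5502 CPM in that order. The other 8-week livers held at most 2629 CPM, so that leaving out replicates 3, 4 and 5 lowers the 8-week sum by itself. Without replicates 3, 4 and 5 the log2 differences at 8 weeks were -2.55 for Mup3, -5.08 for Mup7, -4.63 for Mup11, -4.99 for Mup16, -7.64 for Mup17, -1.34 for Mup20 and -2.79 for Mup21.

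**Figure D3:**
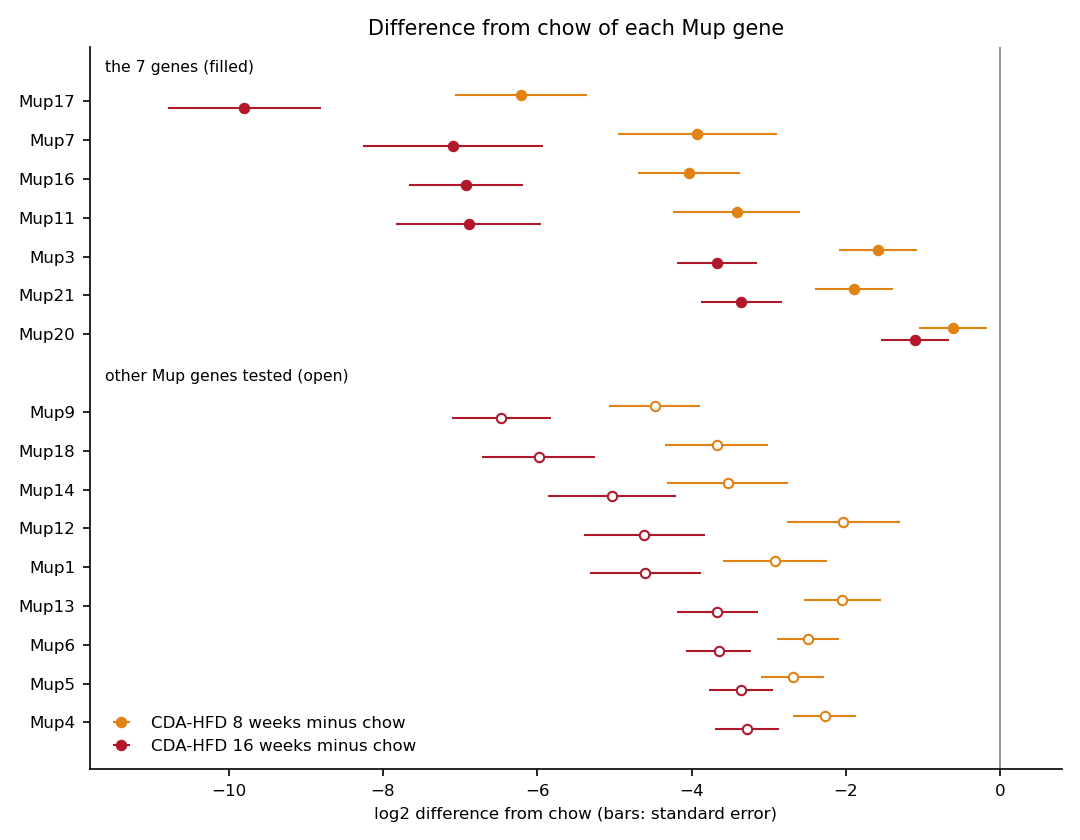
Log2 difference from chow (horizontal axis, bars show ± 1 standard error) at 8 weeks (orange) and 16 weeks (red) of CDA-HFD for the 7 genes (filled) and the 9 other Mup genes tested (open). Values run from -9.79 for Mup17 at 16 weeks to -0.61 for Mup20 at 8 weeks, and every value lies left of 0.

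Between the diet groups, 6 of the 7 genes had lower levels in the 16-week livers, with log2 differences of -1.46 or below, and Mup20 differed least. The log2 difference of 16 weeks from 8 weeks was -2.09 ± 0.47 (SE) for Mup3, -3.17 ± 0.95 for Mup7, -3.47 ± 0.78 for Mup11, -2.89 ± 0.61 for Mup16, -3.58 ± 0.75 for Mup17 and -1.46 ± 0.46 for Mup21. For Mup20 it was -0.49 ± 0.40, and 0.07 without replicate 3 of the 8-week group. Only Mup16 had groups that did not overlap, with at most 2.92 CPM at 16 weeks and at least 3.54 CPM at 8 weeks, where 0.509% of all genes were lower without overlap. Replicates 3, 4 and 5 of the 8-week group held its highest 7-gene sums, so that leaving them out brings the 8-week sum closer to that at 16 weeks. Without them the differences were smaller, at -1.12 for Mup3, -2.02 for Mup7, -2.27 for Mup11, -1.95 for Mup16, -2.16 for Mup17 and -0.57 for Mup21. Relative to the hepatocyte genes, with all libraries kept, the differences were -1.03 for Mup3, -2.50 for Mup7, -2.57 for Mup11, -2.04 for Mup16, -2.66 for Mup17 and -0.60 for Mup21. Without replicate 5 of the 8-week group the value for Mup7 was -2.38, and without replicate 7 of the 16-week group it was -3.87. The sum of the 7 genes was lower by a log2 difference of -1.60 ± 0.42, or -1.12 without replicate 3 and -0.57 relative to the hepatocyte genes. Scaled to total counts or to the hepatocyte genes in place of TMM, Mup20 was higher at 16 weeks, by log2 differences of 0.11 and 0.52.

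Replicates 1, 4 and 7 of the 16-week group held the highest levels of the core genes, Mup3 and Mup21 there. Mup7 was 14.6, 55.9 and 71.0 CPM in these 3 livers and 0.578 to 4.11 CPM in the other 5. Mup17 was 2.86, 2.76 and 5.63 CPM in them and 0.209 to 1.46 CPM in the other 5. Mup3 was 948.8, 1140 and 1116 CPM in them and 132.6 to 640 CPM in the other 5. Mup21 was 20.9, 39.5 and 47.9 CPM, against 3.50 to 17.1 CPM. Mup20 was 597.2, 964.7 and 966.5 CPM in them and 275.3 to 900.4 CPM in the other 5, so that only replicate 1 was within that range. The male-biased liver genes summed to 2647, 2981 and 3934 CPM in the 3 livers, against 565.8 to 1219 CPM. The hepatocyte sums were 144800, 139000 and 134600 CPM, against at most 128700 CPM. The same 3 livers had the highest squamous sums of their group, at 252.2, 79.0 and 155 CPM where the other 5 had 6.45 to 21.3 CPM, and the highest muscle sums, at 374.3, 379 and 213.8 CPM where the other 5 had 5.81 to 32.5 CPM. The part of those tissues in the Mup levels was not tested. These 3 livers held the highest levels of the core genes, Mup3 and Mup21, so that leaving them out lowers the 16-week levels by itself. Leaving out these 3 livers and replicates 3 and 6 of the 8-week group, the other squamous-high libraries, gave log2 differences from chow at 16 weeks of -10.01 for Mup7, -8.94 for Mup11, -8.12 for Mup16, -11.17 for Mup17 and -4.44 for Mup3. For Mup21 it was -4.28 and for Mup20 -1.35.

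The chow livers themselves were not uniform in the core genes. Chow replicate 1 held 103.6 CPM of Mup17, or 5.07% of the mean of the other 4 chow livers, 9.81% of their mean for Mup16, 13.0% for Mup11 and 19.8% for Mup7. It held 61.8% of their mean for Mup21, 70.7% for Mup20 and 79.6% for Mup3. Its hepatocyte sum of 198100 CPM was above the 165300 to 189100 CPM of the others, and its sum over 14 male-biased liver genes, at 23930 CPM, was within their 19490 to 27050 CPM. Serpina1e alone made up 17240 CPM of that sum. Gene by gene, 6 of the 14 were below the range of the other 4 chow livers and 2 were above it. Its Ghr level of 767.1 CPM was also within their range of 669.7 to 814.3 CPM. The order of the 7 genes by how far this liver lay below the other chow livers placed the 4 core genes first.

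The make-up of the 7-gene sum shifted towards Mup20 on the diet. Mup20 held 23.8% ± 10.8 of the 7 genes' counts at 8 weeks (SD, n = 8) and 53.0% ± 10.9 at 16 weeks (SD, n = 8), against 9.03% ± 2.14 on chow (SD, n = 5). The range was 10.2% to 38.2% at 8 weeks and 36.7% to 68.4% at 16 weeks, against 6.14% to 11.9% on chow, so that the 16-week livers lay above all chow livers. Counted per exon length, the Mup20 share was 26.4% ± 11.5 at 8 weeks and 56.1% ± 10.8 at 16 weeks, against 10.4% ± 2.31 on chow. The core genes held smaller shares in the diet groups. Mup17 held 0.521% of the counts at 8 weeks and 0.115% at 16 weeks, against 8.87% on chow. Mup7 held 4.67% at 8 weeks and 0.988% at 16 weeks, against 14.7% on chow, and Mup11 held 5.85% at 8 weeks and 1.23% at 16 weeks, against 14.2% on chow. Mup3 held 63.4% ± 7.19 at 8 weeks and 43.3% ± 8.93 at 16 weeks, against 51.1% ± 13.5 on chow. Chow replicate 1, low in the core genes, had a Mup3 share of 73.8%. Without 8-week replicate 3 the 8-week share of Mup20 was 23.6% ± 11.6 and that of Mup3 62.6% ± 7.32 (SD, n = 7).

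**Figure D4:**
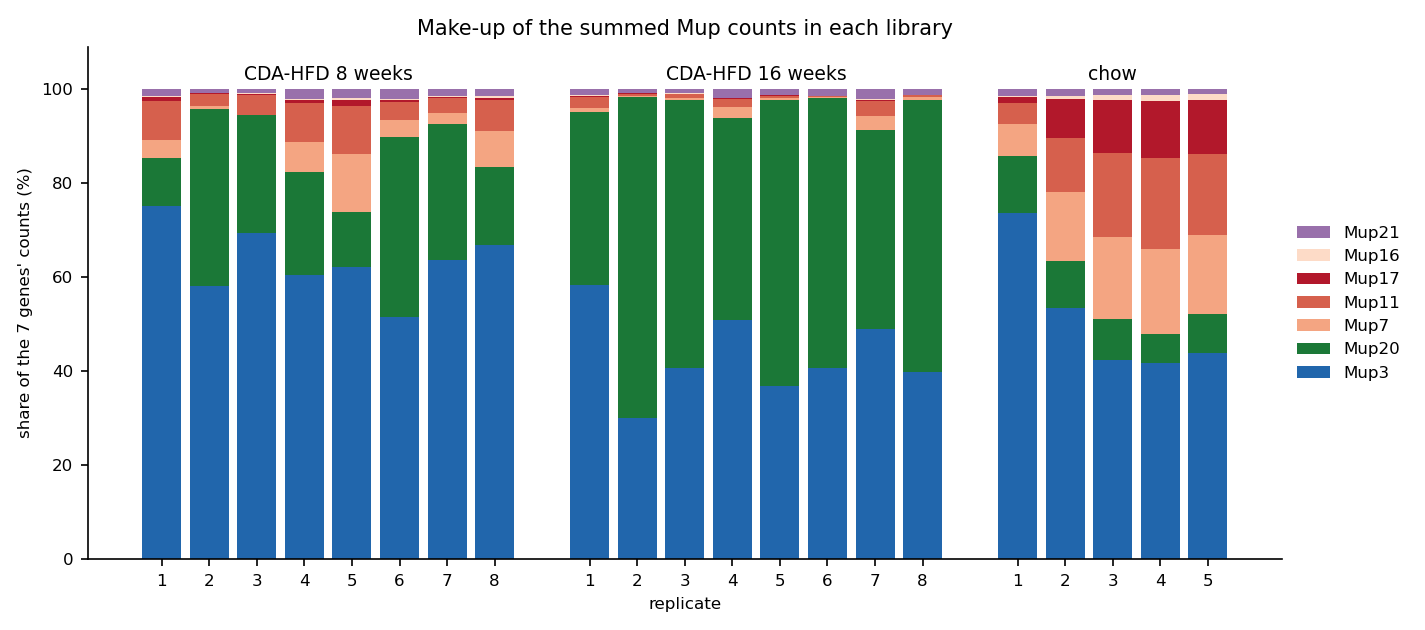
Share of the 7 genes' summed counts held by each gene (vertical axis, %), 1 bar per library, by replicate number within each group. Mup20 (green) holds 36.7% to 68.4% in the 16-week CDA-HFD livers and at most 11.9% in the chow livers. In the chow livers the core genes Mup7, Mup11 and Mup17 (red shades) are wide bands except in replicate 1. The core gene Mup16, also in a red shade, holds at most 1.25% there.

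Per kilobase of exon, the order of the genes differed between the groups. Exon length counts all annotated exons of a gene together, 1576 bases for Mup11 and 1033 bases for Mup7. The transcripts used for the windows are 930 and 927 bases long, so that the place of Mup11 among the core genes depends on the length used. At 8 weeks of CDA-HFD the mean levels were 2505 ± 2293 CPM per kb for Mup3, 1011 ± 954 for Mup20, 168 ± 219 for Mup7, 154.5 ± 128 for Mup11, 81.6 ± 52.4 for Mup21, 24.2 ± 24.8 for Mup17 and 9.57 ± 7.75 for Mup16 (SD, n = 8). The ranges of all neighbours in that order overlapped, although Mup3 was above Mup20 in 8 of 8 livers. Without replicate 3 the levels were 1740 ± 821 CPM per kb for Mup3 and 688.7 ± 306 for Mup20, with 189.4 ± 228 for Mup7 and 131.5 ± 119 for Mup11 (SD, n = 7). At 16 weeks they were 719.3 ± 295 CPM per kb for Mup20, 590.5 ± 374 for Mup3, 29.7 ± 23.3 for Mup21, 18.7 ± 27.0 for Mup7, 13.9 ± 16.2 for Mup11, 2.01 ± 1.97 for Mup17 and 1.29 ± 1.04 for Mup16 (SD, n = 8). There the only neighbours whose ranges did not overlap were Mup3 and Mup21. On chow they were 7512 ± 744 CPM per kb for Mup3, 2548 ± 1214 for Mup7, 1785 ± 1064 for Mup17, 1650 ± 943 for Mup11, 1546 ± 292 for Mup20, 303.7 ± 59.3 for Mup21 and 156 ± 99.6 for Mup16 (SD, n = 5). On chow the ranges separated Mup3 from Mup7 and Mup20 from Mup21. Mup20 exceeded Mup3 per kb in 0 of 8 livers at 8 weeks, in 5 of 8 at 16 weeks and in 0 of 5 on chow.

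Over the 21 libraries the levels of the core genes and the divergent pair were closely correlated, and those of Mup20 less so with each. The Pearson correlation of log2 CPM was 0.987 between Mup16 and Mup17, 0.984 between Mup11 and Mup16 and 0.966 between Mup3 and Mup21 (n = 21 libraries, which share 3 groups and their scaling, and for the core genes possibly reads). For Mup20 it was 0.49 with Mup7 and 0.734 with Mup3. On deviations from the group means, Mup11 and Mup16 stood at 0.954, Mup3 and Mup21 at 0.895, and Mup20 stood at 0.125 with Mup7 and 0.741 with Mup3. Mup3 and Mup7 stood lower there, at 0.53.

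The other Mup genes were also lower on CDA-HFD. Of 15 such genes 9 passed the filter on low counts, and all 9 fell at 8 weeks by edgeR's quasi-likelihood test (Benjamini-Hochberg adjusted p under 0.05 over all genes), where 20.5% of all genes tested did, and all 9 fell at 16 weeks, where 22.5% did. Their counts are not independent of the 7 genes wherever reads can be shared. Here and for the genes that follow, a pair of log2 differences from chow or of p-values gives 8 weeks and then 16 weeks of CDA-HFD. Mup4, Mup5 and Mup6 are divergent members for which at least 98.7% of 100-base windows are unique. With 50-base windows the shares were 87.6% for Mup4, 82.9% for Mup5 and 95.7% for Mup6. Shared 50-base windows occurred in up to 18 other Mup genes. The read length is not known, and the levels of Mup4, Mup5 and Mup6 are low beside those of the core genes. How much of their counts came from shared reads was not tested. Mup6 averaged 4.75 ± 2.01 CPM at 8 weeks and 2.13 ± 1.21 CPM at 16 weeks, against 26.6 ± 10.8 CPM on chow, with log2 differences of -2.49 ± 0.41 (edgeR quasi-likelihood adjusted p = 4.46e-05) and -3.65 ± 0.42 (edgeR adjusted p = 3.24e-07). Mup5 had log2 differences of -2.69 and -3.36 (edgeR adjusted p = 2.11e-05 and 8.52e-07) and Mup4 of -2.28 and -3.28 (edgeR adjusted p = 0.000144 and 1.38e-06). Among the near-identical copies, Mup9 averaged 2.83 ± 1.85 CPM at 8 weeks and 0.707 ± 0.469 CPM at 16 weeks, against 62.2 ± 43.2 CPM on chow, with log2 differences of -4.48 (edgeR adjusted p = 3.95e-06) and -6.46 (edgeR adjusted p = 5.22e-08). Mup14 averaged 15.8 ± 13.8 CPM at 8 weeks and 5.59 ± 6.63 CPM at 16 weeks, against 183.3 ± 86.1 CPM on chow. Mup18 had log2 differences of -3.68, or -4.34 without replicate 3 of the 8-week group, and -5.98, and Mup1 of -2.92 and -4.60. Mup12 fell at 8 weeks with a log2 difference of -2.03 (edgeR adjusted p = 0.0256), a call lost without chow replicate 4 (edgeR adjusted p = 0.0744), and had -4.61 at 16 weeks. Mup13 had log2 differences of -2.05 and -3.67. Between 16 and 8 weeks 5 of the 9 fell, where 11% of all genes did, and 0 did when replicates 3, 4 and 5 of the 8-week group were left out. Of 27 Mup pseudogenes 6 were tested, and 5 fell at 8 weeks and 6 at 16 weeks.

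In the growth hormone pathway, which drives Mup expression in male mice, the receptor transcript fell. Of 13 genes from receptor to targets, 6 fell and 1 rose at 8 weeks, where 20.5% of all genes fell and 30.8% rose, and 6 fell and 1 rose at 16 weeks, where 22.5% fell and 29.4% rose. The list's median log2 difference was -0.57 at 8 weeks and -0.63 at 16 weeks. Scaled to total counts, 3 of the 13 were called at 8 weeks. Ghr, the growth hormone receptor, averaged 348.8 ± 75.3 CPM at 8 weeks and 247.5 ± 75.7 CPM at 16 weeks, against 760.2 ± 54.4 CPM on chow. Its log2 difference from chow was -1.12 at 8 weeks (edgeR adjusted p = 6.4e-05) and -1.62 at 16 weeks (edgeR adjusted p = 4.14e-07). Igf1, the growth factor induced by the hormone, averaged 402.5 ± 66.4 CPM at 8 weeks and 315.3 ± 31.9 CPM at 16 weeks, against 761.9 ± 117 CPM on chow, with log2 differences of -0.92 (edgeR adjusted p = 4.05e-06) and -1.27 (edgeR adjusted p = 3.02e-08). Stat5b, the factor downstream of the receptor, averaged 59.2 ± 20.1 CPM at 8 weeks and 60.4 ± 8.16 CPM at 16 weeks, against 93.2 ± 5.81 CPM on chow. Its log2 differences were -0.65 (edgeR adjusted p = 0.0194) and -0.63 (edgeR adjusted p = 0.0231), and both calls were lost with scaling to total counts (edgeR adjusted p = 0.207 and 0.794), the second also without chow replicate 1 (edgeR adjusted p = 0.051). Socs2, a feedback inhibitor induced by STAT5, fell by 0.89 at 8 weeks (edgeR adjusted p = 0.032), a call lost in 7 alternatives, among them leaving out chow replicate 1, 3 or 4 or 8-week replicate 8 (edgeR adjusted p up to 0.22), and had a log2 difference of -0.20 at 16 weeks (edgeR adjusted p = 0.661). Prlr, the prolactin receptor, fell by 1.95 at 16 weeks (edgeR adjusted p = 5.32e-06), and Igfals, which encodes a carrier subunit for IGF1 in blood, fell there by 1.42 (edgeR adjusted p = 3.08e-05).

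Among 20 transcription factors of liver gene regulation, 14 fell and 0 rose at 8 weeks (median log2 difference -0.85), where 20.5% of all genes fell and 30.8% rose, and 15 fell and 0 rose at 16 weeks (median -0.87), where 22.5% fell and 29.4% rose. With scaling to total counts 9 were called at 8 weeks, and with scaling to the hepatocyte genes 5 were called at 16 weeks. Zhx2, which promotes Mup expression, averaged 21.9 ± 4.47 CPM at 8 weeks and 23.3 ± 2.89 CPM at 16 weeks, against 31.3 ± 2.77 CPM on chow. Its log2 differences were -0.51 (edgeR adjusted p = 0.00449) and -0.42 (edgeR adjusted p = 0.0134). With scaling to total counts the call at 8 weeks was lost (edgeR adjusted p = 0.221), and the value at 16 weeks was 0.11 (edgeR adjusted p = 0.708). Hnf4a, a factor needed for hepatocyte identity, averaged 582.2 ± 108 CPM at 8 weeks and 487.7 ± 82.9 CPM at 16 weeks, against 1122 ± 117 CPM on chow, with log2 differences of -0.95 (edgeR adjusted p = 1.4e-05) and -1.20 (edgeR adjusted p = 3.7e-07). Onecut1, also called HNF6, fell furthest of the list, with log2 differences of -3.39 (edgeR adjusted p = 4.79e-05) and -3.98 (edgeR adjusted p = 5.15e-06). Thrb, a thyroid hormone receptor, had log2 differences of -1.66 and -1.86, and Ppara, the receptor that controls fatty acid oxidation, of -1.32 and -1.39, the last a call lost with scaling to the hepatocyte genes (edgeR adjusted p = 0.0727). Nfib had -1.12 at 8 weeks, and Esr1, the estrogen receptor, -1.57 at 16 weeks. Bcl6, a repressor of female-biased genes in male liver, had log2 differences of -0.99 (edgeR adjusted p = 0.133) and -0.66 (edgeR adjusted p = 0.338), and of -1.502 (edgeR adjusted p = 0.0114) and -1.37 (edgeR adjusted p = 0.022) without the 5 squamous-high libraries. Without 8-week replicate 6 the first was -1.43 (edgeR adjusted p = 0.0262), and without chow replicate 2 the values were -0.115 (edgeR adjusted p = 0.87) and 0.22 (edgeR adjusted p = 0.763). Cux2, a factor more highly expressed in female liver, stood at or under 0.647 CPM in each group mean, with log2 differences of 0.22 (edgeR adjusted p = 0.552) and 0.49 (edgeR adjusted p = 0.18), the second called with scaling to total counts (1.04, edgeR adjusted p = 0.0196).

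Other male-biased liver genes were lower as well. Of 14 such genes 13 fell and 0 rose at 8 weeks (median log2 difference -2.23), where 20.5% of all genes fell, and 14 of 14 fell at 16 weeks (median -2.99), where 22.5% did. Moxd1, which encodes a monooxygenase-like protein, averaged 0.206 ± 0.211 CPM at 8 weeks and 0.104 ± 0.0939 CPM at 16 weeks, against 72.8 ± 59.3 CPM on chow, with log2 differences of -8.48 (edgeR adjusted p = 4.59e-08) and -9.38 (edgeR adjusted p = 7.56e-09). As for the core Mup genes, its lowest chow value, 7.58 CPM, was in replicate 1. Its level in chow replicate 2 was also low, at 11.04 CPM, against 98.6 to 133.1 CPM in replicates 3, 4 and 5. Mup17 in chow replicate 2 was 1263 CPM, against 103.6 CPM in replicate 1. Elovl3, a fatty acid elongase, averaged 143.1 ± 88.2 CPM at 8 weeks and 46.4 ± 32.1 CPM at 16 weeks, against 1574 ± 262 CPM on chow, with log2 differences of -3.46 (edgeR adjusted p = 7.79e-06) and -5.09 (edgeR adjusted p = 6.24e-08). Ugt2b38, a glucuronosyltransferase, had log2 differences of -4.18 and -5.08, and Cyp4a12a, a fatty acid hydroxylase of male liver, of -3.39 and -3.30. Hsd3b5, a steroid-converting enzyme, fell by 5.01 at 16 weeks (edgeR adjusted p = 5.47e-05), with a log2 difference of -5.77 without 16-week replicate 7 and of -7.52 without the 5 squamous-high libraries.

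Female-biased liver genes moved in both directions. Of 13 genes 9 were tested, and 4 rose and 4 fell at 8 weeks, where 30.8% of all genes rose and 20.5% fell, and 4 rose and 4 fell at 16 weeks, where 29.4% rose and 22.5% fell. With only genes averaging at least 1 CPM kept, 2 were called at 8 weeks and 3 at 16 weeks. Cyp2b9, a cytochrome P450, averaged 50.3 ± 39.6 CPM at 8 weeks and 15.8 ± 6.17 CPM at 16 weeks, against 0.0372 ± 0.0281 CPM on chow, where the 5 libraries held 6 counts in all (edgeR adjusted p = 5.56e-09 and 1.25e-08). Cyp2b13 averaged 0.289 CPM at 8 weeks and 0.310 CPM at 16 weeks, against 1 count in the 5 chow libraries together. Hao2, a hydroxyacid oxidase, rose by a log2 difference of 2.96 at 16 weeks (edgeR adjusted p = 0.00749). Cyp2a4 rose by 2.78 at 16 weeks (edgeR adjusted p = 0.0316), a call lost when chow replicate 2, 3, 4 or 5 or 16-week replicate 2 or 8 was left out (edgeR adjusted p up to 0.099), and by 4.63 without chow replicate 1. Cyp3a41b fell by 2.42 at 8 weeks (edgeR adjusted p = 2.93e-05).

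Other lipocalins, the protein family of the Mup genes, were also counted. Of 10 such genes 4 rose and 0 fell at 8 weeks (median log2 difference 1.65), where 30.8% of all genes rose and 20.5% fell, and 2 rose and 2 fell at 16 weeks (median 0.23), where 29.4% rose and 22.5% fell. Lcn2, an iron-scavenging protein of the acute phase, averaged 740.8 ± 434 CPM at 8 weeks and 385.2 ± 86.6 CPM at 16 weeks, against 49.4 ± 74.2 CPM on chow, with log2 differences of 3.91 (edgeR adjusted p = 0.000418) and 2.96 (edgeR adjusted p = 0.00223). Without chow replicate 5 these were 5.40 and 4.46. Ptgds, a prostaglandin D synthase, rose by 2.84, or 1.97 without replicate 3 of the 8-week group, and 2.29. The acute-phase genes Orm3 and Orm2 rose by 2.61 and 2.39 at 8 weeks, or 3.43 and 3.29 without chow replicate 5, the second a call lost when only the 8-week and chow groups were fitted (edgeR adjusted p = 0.0539). Orm1 fell by 0.94 (edgeR adjusted p = 0.03) and Ambp by 0.90 (edgeR adjusted p = 0.0296) at 16 weeks, calls lost with scaling to total counts and, among others, without chow replicate 3 or 5. The call of Orm1 was also lost without 16-week replicate 2 or 8. Among the 14 hepatocyte secreted genes, 4 rose and 6 fell at 8 weeks (median 0.01), and 0 rose and 8 fell at 16 weeks (median -0.85). Albumin itself averaged 122000 ± 41490 CPM at 8 weeks and 69940 ± 9206 CPM at 16 weeks, against 92190 ± 17200 CPM on chow (edgeR adjusted p = 0.128 and 0.13).

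**Figure D5:**
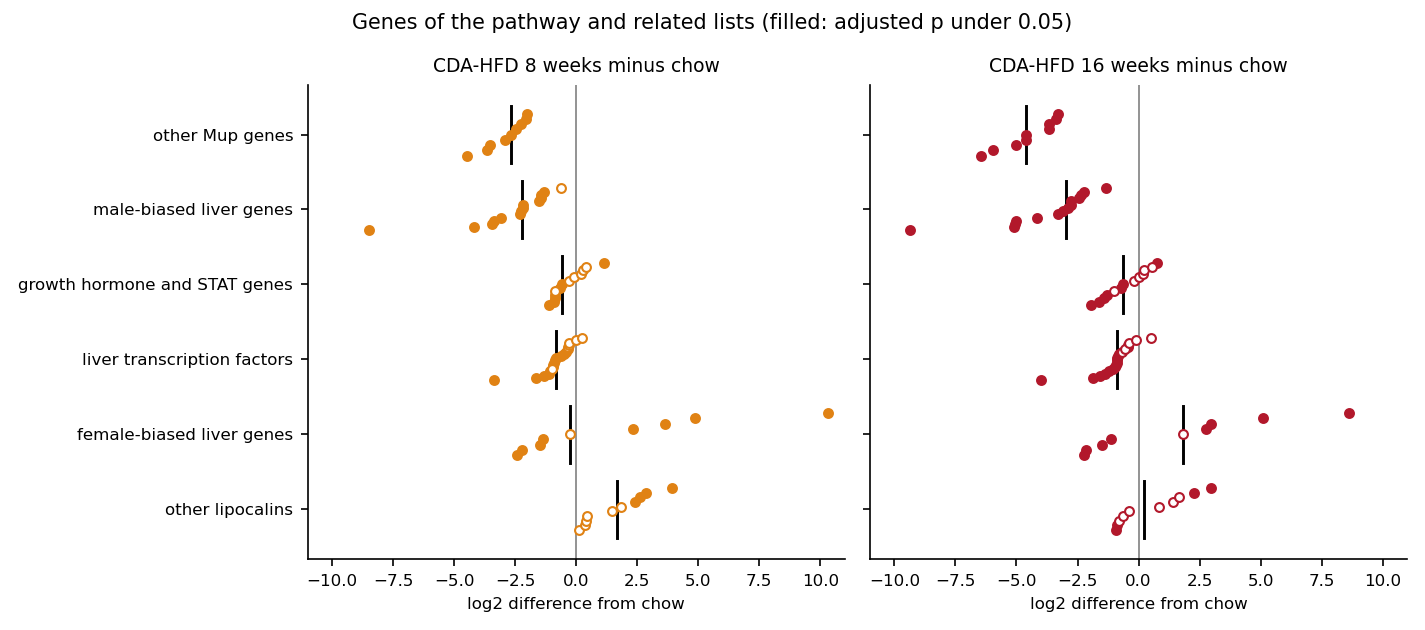
Log2 difference from chow of every tested gene of 6 lists (horizontal axes), at 8 weeks (left, orange) and 16 weeks (right, red) of CDA-HFD, with filled points at an edgeR adjusted p under 0.05 and a black line at each list's median. The medians of the other Mup genes (-2.69 and -4.60) and of the male-biased genes (-2.23 and -2.99) lie furthest left, and female-biased genes fall on both sides of 0.

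Among the genes without a Mup symbol whose level was most like the 7-gene sum, by Pearson correlation of log2 CPM over the 21 libraries, were Ldhd (r = 0.98), Thrsp (0.969), Cyp2u1 (0.969), Acsm2 (0.967), Selenbp2 (0.966), C4a (0.966) and Tlcd2 (0.965). Ldhd encodes a lactate dehydrogenase for D-lactate, and it averaged 151.3 ± 61.9 CPM at 8 weeks and 88.8 ± 26.6 CPM at 16 weeks, against 289 ± 17.9 CPM on chow. Thrsp, a gene of the lipogenic programme, averaged 22.2 ± 11.4 CPM at 8 weeks and 9.72 ± 6.38 CPM at 16 weeks, against 194.7 ± 39.3 CPM on chow. Selenbp2 is among the 14 male-biased genes. On deviations from the group means the most alike included Cyp2d40 (0.941), Ces3a (0.939), Tlcd2 (0.937) and Mbl1 (0.933). Of the upstream genes, Ghr stood at 0.878 over the 21 libraries and 0.448 on deviations from the group means, Igf1 at 0.847 and 0.201, and Hnf4a at 0.832 and 0.274. Zhx2 stood at 0.359, Stat5b at 0.205, Bcl6 at 0.213, Socs2 at -0.101 and Cux2 at -0.463 over the 21 libraries. On deviations from the group means they stood at -0.297 for Zhx2, -0.487 for Stat5b, 0.161 for Bcl6, -0.177 for Socs2 and -0.429 for Cux2. These libraries share groups, scaling and depth, and no test is attached to any of these correlations.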

How the data were processed

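RNA was measured in 21 mouse livers, with RNeasy extraction and TruSeq Stranded Total RNA libraries per the labels' protocols. Raw read counts per gene, not normalized, were deposited. Per the submitters' processing notes the genome was GRCm38. For the aligner, counting program, annotation release and read length: not given in the sources used here. In 21 of 21 samples the separate count file matched the series table exactly. Symbols came from GENCODE M21 for 52403 IDs (99.56%), and promoters came from RefSeq.

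Tests ran in edgeR 4.0.16 under R 4.3.3 (filterByExpr, TMM, 1 quasi-likelihood fit of all 21 libraries by group) and DESeq2 1.42.0 as an alternative. This left 17104 genes holding 99.961% of the counts. Genes with a Benjamini-Hochberg adjusted p under 0.05 over all of them were called. Rose and fell are used of called genes only. CPM are counts scaled to TMM library size. For sums, the rows summed were replaced by their sum and the library sizes kept. Standard errors were taken as the size of the log2 difference over the square root of its F statistic. Windows, motifs and figures were made with Python 3.11.15, Biopython 1.88, MAFFT 7.526 and matplotlib 3.10.9, and the procedure was tested on simulated data.

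The 7 genes, the other lists, the tests, the alternatives and the libraries left out together were chosen with earlier results of these data known. The rule named the 7 genes, the other Mup genes, up to 4 called genes per list and chow contrast with the largest difference, 8 upstream genes, and the 8 and 5 genes most like the sum. Of these, 3 genes are not reported here. Any other named gene was chosen after its values were seen. Replicate numbers follow listing order. The labels list separate samples and do not tie each to an animal, so p-values measure the spread between these samples, which may be technical.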

Additional observations from a re-analysis of the deposited data

Results flagged for a closer look

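In 27 groups of values (the 7 genes and their sums in each group of livers), 7 held a sample whose gap to its neighbour was large for its group's range. A chance rate of about 1 in 20 applies to separate groups, and these are not separate. The sums repeat the counts of the genes and the same libraries recur, so that no excess over chance is read from the 7. In the chow group this was replicate 1 for Mup3, at 6660 CPM where the next lowest was 8144 CPM. In the 8-week CDA-HFD group it was replicate 3 for Mup3, at 8394 CPM with 3419 CPM next, and for Mup20, at 3031 CPM with 990.5 CPM next. The same library stood apart for the sum of the 7 genes, at 12100 CPM with 5502 CPM next, and for the sum of all Mup rows, at 12170 CPM with 5617 CPM next. Scaled to total counts, its 7-gene sum was 5994 CPM. In the same group, replicate 5 stood apart for Mup7, at 684.2 CPM with 292.7 CPM next, and for Mup16, at 27.0 CPM with 14.5 CPM next.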

How the results depend on the processing

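The 7-gene sum stayed lower in every comparison and every alternative run. Its log2 difference was -2.95 to -1.91 at 8 weeks against chow (-2.50 to -1.91 with each library left out in turn, -2.95 without 8-week replicates 3, 4 and 5), -4.13 to -3.12 at 16 weeks against chow (-3.77 to -3.48 with each library left out) and -1.74 to -0.57 at 16 against 8 weeks (-1.74 to -1.12 with each library left out, -0.57 scaled to the hepatocyte genes). For Mup20 the difference of 16 from 8 weeks turned to 0.11 with total counts, 0.52 with the hepatocyte genes, 0.23 without 8-week replicates 3, 4 and 5, and -0.64 to 0.068 with each library left out, the only positive value there being without 8-week replicate 3. At 16 weeks against chow, Socs2 turned to 0.37 (total counts), 0.40 (hepatocyte genes) and -0.41 to 0.21 with each library left out, positive without chow replicate 4. Zhx2 turned to 0.11 under both scalings. Bcl6 ran from -1.12 to 0.22, positive without chow replicate 2. The genes called numbered 8772 at 8 weeks against chow (5555 with the hepatocyte genes), 8873 for 16 weeks and chow, and 3703 for 16 and 8 weeks. The last count was 11097 with the hepatocyte genes, 2226 with only the 2 groups, 5579 without the 5 squamous-high libraries and 2248 to 5132 with each library left out. Of genes called, 60.1%, 56.6% and 49% were higher in these comparisons, against 78.3%, 89.5% and 94.8% with total counts and 54%, 90.5% and 99.3% with the hepatocyte genes, and 64.9% at 16 against 8 weeks with only the 2 groups. Total counts moved the median of all genes to 0.28, 0.56 and 0.38. The cause was not tested. No paired analysis was possible because replicate numbers follow listing order and pair no livers. Counting depth limits Mup16 and Mup17 most, with as few as 12 and 13 counts in a library.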
